A study of Homo sapiens with 16 samples.

Results

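Polysome pool C of untreated MM1.S cells was compared with total RNA of untreated MM1.S cells, over all genes detected on the arrays. MM1.S is an established human cell line from multiple myeloma, the cancer of plasma cells, which secrete antibodies. The comparison took 4 of the 16 arrays of the study, the 2 of pool C and the 2 of total RNA with 0 h of dexamethasone, a synthetic glucocorticoid that the treated cells received at 1 uM for 4 h. Per the labels, all groups were log-phase cultures of this single line in serum-containing medium, with no genetic change named, and pools A, B and C were made by pooling RNA from fractionated polysomes. Of 47323 probes on the array, 17269 were detected on at least 2 arrays (detection p under 0.01), and 10163 genes were tested. Column names tell the 2 arrays of each group apart as N and X, and array values are given in that order. The meaning of these letters and the part of the sucrose gradient in pool C were not stated in the sources used here. Nor was it stated whether the 2 arrays of a group came from separate cultures. The error behind each p-value was pooled over the 8 groups of all 16 arrays. It measures the spread between arrays within groups, which may be technical.

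In polysome profiling a lysate is spun through sucrose so that mRNAs sediment by the number of ribosomes they carry. A message with a long coding sequence has room for many ribosomes and one with a short coding sequence for few, and RNAs that are not translated sediment by the particles they sit in. Plasma cells devote much of their translation to secreted proteins made at the endoplasmic reticulum, and lean on the proteasome to clear misfolded ones.

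Each of the 4 arrays detected 27.8% to 30.9% of its probes, with median intensities of 146.2 to 176.6. Values are log2 intensities after background correction and quantile normalization, so a difference is relative to the other RNAs on the arrays, and errors are standard errors from limma with 2 arrays per group. In a bulk lysate, a smaller share of an RNA in pool C in every cell and in only some cells cannot be told apart. Across genes, the 2 arrays correlated at 0.984 in pool C and 0.988 in total RNA. All 9 plasma cell markers, among them the surface antigens SDC1, CD38 and TNFRSF17, were detected on all 4 arrays. None of 7 stromal markers was detected, and 7 of 8 T cell markers, 5 of 6 B cell markers and 7 of 8 monocyte markers were detected on no array. The monocyte marker that was detected, CD68, was lower in pool C at 7.90 and 7.92 against 8.81 and 8.74 (-0.87 ± 0.22, adjusted p = 0.00971), but its kept probes disagreed in sign and it was at -0.63 (adjusted p = 0.0575) under median scaling, -0.85 (adjusted p = 0.0518) without the N array of pool C and -0.83 (adjusted p = 0.0632) without that of total RNA. Of 6 erythroid markers on the array, HBB, HBD and EPOR were detected on all 4. Their list's summed intensity was 1367 to 4234 in pool C and 1479.4 to 3673.4 in total RNA, and ALAS2, HBA1 and HBA2 were not detected. HBB stood at 7.80 and 6.35 in pool C and 8.42 and 7.56 in total RNA (-0.91 ± 0.46, adjusted p = 0.156). HBD stood at 11.86 and 10.05 in pool C and 11.60 and 10.08 in total RNA, so its N arrays were high in both groups. The part of these markers in the results was not tested.

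Pool C and total RNA differed at 2974 of 10163 genes (29.3%), with 1428 higher (14.1%) and 1546 lower (15.2%) in pool C (limma, Benjamini-Hochberg adjusted p under 0.05), and at 4200 (41.3%) by an unadjusted p under 0.05. The arrays of the 2 groups did not overlap at 7090 genes (69.8%), so separate groups alone were common. All 2974 called genes were among them. For a called gene named below, separate arrays are therefore no support beyond the call. At least 2-fold differences were found at 523 of the higher (5.15% of the genes tested) and 986 of the lower genes (9.7%). The median difference over all genes was 0.064 log2 units, and the 5th and 95th percentiles were -1.37 and 1.04. By annotated type, 71 of 115 small nucleolar RNAs (61.7%), 58 of 179 long noncoding RNAs (32.4%) and 6 of 12 small nuclear RNAs were lower, against 1361 of 9606 protein-coding genes (14.2%). Of 33 microRNA genes 3 (9.09%) were lower. Detection differed in both directions. On both total RNA arrays and no pool C array 232 genes were detected, 185 of them called, while 194 were detected on both pool C arrays and no total RNA array, 78 of them called. The split of calls moved with the scaling. Median scaling in place of quantiles moved the median of all genes to 0.28 and gave 2761 higher and 1166 lower, and the deposited value table, with a median of 0.13, gave 2084 and 1004. Counts and medians of most lists are therefore also given under these 2 scalings, with the median relative to that of all genes. The count of calls was 1666 without the N array of pool C, 1898 without its X array, 1578 without the N array of total RNA and 1523 without its X array. Without both X arrays, which was tried only after the data had been seen, it was 650, of which 644 were among the 2974. A group left with 1 array is assumed to vary like the other groups.

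**Figure D1:**
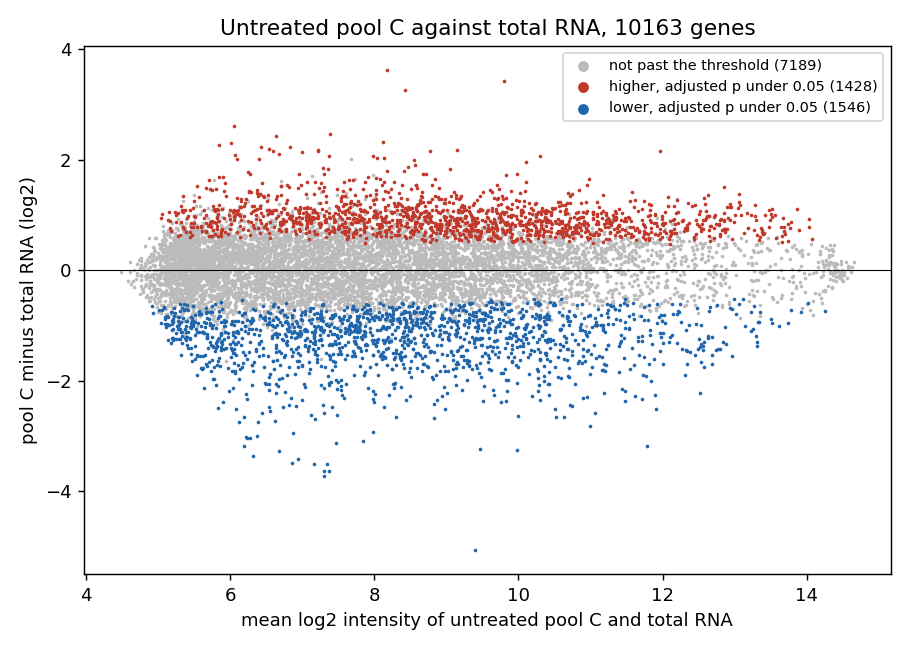
Each point is a gene, with its mean log2 intensity in untreated pool C and total RNA on the horizontal axis and pool C minus total RNA (log2) on the vertical axis; red and blue points passed the adjusted p threshold as higher (1428) and lower (1546). The lower points reach further from 0 than the higher ones, to -5.07 against 3.63.

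Most of the small nucleolar RNAs, which guide chemical modification of ribosomal RNA in the nucleolus, and of the Cajal body RNAs related to them were lower in pool C. Of 122 tested, 72 were lower (59%, against 15.2% of all genes) and 1 was higher (0.82% against 14.1%). Their median difference was -0.96 against 0.064 over all genes. Median scaling gave 3 higher and 76 lower (median -1.08, -1.36 relative to all genes), and the deposited value table gave 1 higher and 44 lower (median -0.32, -0.45 relative to all genes). SNORA61 stood at 6.5005 and 7.23 in pool C and 11.91 and 11.96 in total RNA. Its pool C arrays lay far below both total RNA arrays, a difference of -5.07 ± 0.31 (33.6-fold lower, adjusted p = 2.30e-06). SNORD104 stood at 5.45 and 5.43 in pool C, where neither array detected it, and at 9.30 and 9.04 in total RNA, at least 11.4-fold lower (adjusted p = 6.64e-06). SNORD83B was likewise undetected in pool C, at 4.93 and 5.15 against 8.47 and 8.15 (at least 6.24-fold lower, adjusted p = 4.34e-06). The groups did not overlap in any of these, as in every called gene. SNORA25 differed by -3.50 ± 0.22 and SNORD36A by -2.31 ± 0.19 (adjusted p = 2.30e-06 and 8.57e-06). SCARNA10, bright on all 4 arrays, was at 9.25 and 9.16 against 9.10 and 9.01 (adjusted p = 0.655) and did not pass. For 93 of the 122 the probe was detected on no pool C array, and for 34 on no total RNA array, where values near the floor can understate a difference. A probe entered the test by detection on any 2 of the 16 arrays, and the list's median in pool A was 1.48 against total RNA. Members undetected in pool C had little room to come out higher there, so the counts depend partly on this filter. The labelling kit named in the labels primes on poly(A) tails, which mature small nucleolar RNAs lack, and what these probes took up was not tested. Without both X arrays 39 were lower.

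Some other noncoding RNAs that work outside translation were lower too. Of 24 structural and nuclear RNAs, 11 were lower (45.8%) and 1 was higher (4.17%), beside 15.2% and 14.1% of all genes (list median -0.88). The deposited value table gave 1 higher and 7 lower (median -0.33, -0.46 relative to all genes). For 13 of them the probe was detected on no pool C array and for 8 on no total RNA array. The same filter let these in, with a list median of 2.54 in pool A against total RNA. MIAT, a nuclear long noncoding RNA, stood at 6.13 and 6.89 in pool C and 9.30 and 9.59 in total RNA (-2.94 ± 0.30, adjusted p = 4.02e-05). RN7SK, which holds a transcription elongation factor inactive, was at 6.23 and 5.78 against 8.71 and 8.46 (-2.58 ± 0.33, adjusted p = 1.89e-04). The long noncoding RNA CYTOR differed by -2.51 ± 0.22 (adjusted p = 1.41e-05), and MIR503HG, a microRNA host transcript undetected in pool C, was at least 4.38-fold lower (adjusted p = 2.61e-05). As in every called gene, the groups did not overlap in these, though the 2 kept probes of CYTOR gave -2.51 to -0.72. RN7SL1, the RNA of the signal recognition particle that brings ribosomes to the endoplasmic reticulum, was at 13.53 and 13.86 against 14.29 and 14.31 and did not pass (adjusted p = 0.138). The exception on the high side was RNA28SN5, a copy of the large ribosomal RNA, at 11.21 and 11.81 in pool C and 7.41 and 8.77 in total RNA (3.42 ± 0.80, adjusted p = 0.00672). It was at 3.12 (adjusted p = 0.0507) without the X array of pool C and 2.74 (adjusted p = 0.0722) without the N array of total RNA, and at 0.99 on the treated arrays. Its 2 kept probes gave 0.83 to 3.42, and their mean 2.12 (adjusted p = 0.075). The small-subunit RNA RNA18SN5 was at 10.09 and 10.02 against 9.79 and 10.44 (adjusted p = 0.953). Both ribosomal RNAs have near-identical copies that a probe cannot separate. The count of lower members was 7 without the N array of pool C, 8 without its X array, 8 without the N array of total RNA and 6 without its X array, and 4 without both X arrays.

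Host transcripts of small nucleolar RNAs are spliced, polyadenylated RNAs whose introns hold the small RNA and whose exons encode little or no protein. Several belong to the TOP class, messages that begin with a C followed by a run of pyrimidines, as ribosomal protein mRNAs do, and whose translation the kinase complex mTORC1 controls. The starts below show the feature in some TOP mRNAs, of which EIF3K was higher, RPL39 lower and the others not called, and in 3 host transcripts that were lower. SNHG1, a host that was lower, is shown as one without it. Each is the sense strand from 10 bases before to 20 bases from the annotated start (RefSeq, GRCh38.p14), 5′ to 3′, with a C and the pyrimidine run after it in capitals.
EEF1A1, chr6:73521013-73521042 (minus strand): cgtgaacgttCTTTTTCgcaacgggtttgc
TPT1, chr13:45341164-45341193 (minus strand): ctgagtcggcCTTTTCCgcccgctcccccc
RPL41, chr12:56116623-56116652 (plus strand): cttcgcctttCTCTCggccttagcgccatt
RPL39, chrX:119791611-119791640 (minus strand): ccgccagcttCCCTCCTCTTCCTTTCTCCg
EIF3K, chr19:38619178-38619207 (plus strand): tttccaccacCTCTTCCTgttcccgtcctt
SNHG5, chr6:85678714-85678743 (minus strand): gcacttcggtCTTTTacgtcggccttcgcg
SNHG32, chr6:31834906-31834935 (plus strand): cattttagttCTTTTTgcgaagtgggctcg
ZFAS1, chr20:49278632-49278661 (plus strand): gccattcgttCTTTCgcgtctgcggtgccc
SNHG1, chr11:62855866-62855895 (minus strand): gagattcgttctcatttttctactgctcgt

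Of 14 host transcripts tested, 11 were lower in pool C (78.6%) and 0 higher, beside 15.2% and 14.1% of all genes (list median -1.70). Median scaling gave 0 higher and 9 lower (median -1.22, -1.4997 relative to all genes), and the deposited value table gave 0 higher and 10 lower (median -1.17, -1.30 relative to all genes). SNHG5 stood at 10.39 and 9.99 in pool C and 13.60 and 13.16 in total RNA (-3.19 ± 0.24, 9.1-fold lower, adjusted p = 4.61e-06). ZFAS1 stood at 8.77 and 8.56 against 11.28 and 11.35 (-2.65 ± 0.19, adjusted p = 4.34e-06). SNHG1 was at 9.93 and 9.61 against 12.45 and 12.25 (-2.58 ± 0.20, adjusted p = 6.64e-06). The arrays of each group lay close together and the groups did not overlap. SNHG6 differed by -2.51 ± 0.19 and SNHG32 by -2.28 ± 0.18 (adjusted p = 4.34e-06 and 6.64e-06). The 2 kept probes of SNHG32 gave -2.28 to -0.20. The number lower was 11 without the N array of pool C, 9 without its X array, 9 without the N array of total RNA and 10 without its X array, and 8 without both X arrays.

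Few messages of the translation machinery, many of which begin with the same feature, passed the test. Of 42 large-subunit ribosomal protein genes 4 were lower (9.52%) and 0 higher (median -0.056, -0.12 relative to all genes). Of 26 small-subunit genes 3 were lower (11.5%) and 1 higher (3.85%), with a median of -0.14 (-0.20 relative to all genes). Among all genes 15.2% were lower and 14.1% higher. Under median scaling the relative medians were -0.46 and -0.50, with 1 higher and 2 lower, and 1 higher and 1 lower. In the deposited value table they were -0.25 and -0.26, with 1 higher and 1 lower in each list. These messages sit near the top of the intensity range, with list medians between 13.8 and 14.3 on the 4 arrays. Whether the arrays compressed differences in that range was not tested. RPL38 was at 14.48 and 14.30 in pool C and 14.41 and 14.43 in total RNA, and RPS13 at 14.45 and 14.32 against 14.41 and 14.40. Neither passed (adjusted p = 0.919 and 0.941). RPL41 was at 14.42 and 14.38 against 14.66 and 14.47 (adjusted p = 0.506), but the mean of its kept probes gave -1.43 (adjusted p = 1.87e-04). RPL39 was lower, at 13.55 and 12.98 against 14.26 and 14.18 (-0.96 ± 0.20, adjusted p = 0.00366). RPS7 was higher (0.99 ± 0.27, adjusted p = 0.0146), but at 0.78 (adjusted p = 0.12) without the N array of pool C and 0.63 (adjusted p = 0.164) without the X array of total RNA. The number of lower large-subunit genes was 6 without the N array of pool C, 1 without its X array, 2 without the N array of total RNA and 1 without its X array, and of small-subunit genes 4 without the N array of pool C, 0 without its X array, 0 without the N array of total RNA and 2 without its X array, with 0 and 0 without both X arrays. Many ribosomal protein genes have processed pseudogenes that a probe can also read.

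Among 25 translation factors and other TOP mRNAs, 3 were higher and 5 lower (median -0.058), shares of 12% and 20% beside 14.1% and 15.2% of all genes. Leaving out any 1 of the 4 arrays left 1 lower. The balance turned to 5 higher and 1 lower (median 0.23, -0.047 relative to all genes) under median scaling and 5 higher and 1 lower (median 0.23, 0.10 relative to all genes) in the deposited value table. EEF1A1, the factor that delivers tRNAs to the ribosome, was at 14.70 and 14.75 against 14.53 and 14.63 (adjusted p = 0.554), and TPT1 at 14.60 and 14.50 against 14.31 and 14.46 (adjusted p = 0.509). Neither passed, and their kept probes disagreed in sign, at -0.28 to 0.22 and -0.71 to 0.16. EIF3K, a subunit of the initiation factor that binds the small ribosomal subunit, was higher at 13.87 and 13.61 against 12.53 and 12.20 (1.38 ± 0.24, adjusted p = 0.00117). HNRNPA1, an RNA-binding splicing regulator, was higher at 8.82 and 9.47 against 7.04 and 7.19 (2.03 ± 0.34, adjusted p = 0.00109), and its gene has many pseudogenes. EIF4B, a helper of the initiation helicase, was lower at 11.38 and 11.72 against 12.95 and 13.002 (-1.42 ± 0.23, adjusted p = 8.96e-04). The poly(A)-binding protein PABPC1 (-0.45 ± 0.26), the cap-binding EIF4E (0.44 ± 0.26) and its inhibitor EIF4EBP1 (0.22 ± 0.32) did not pass (adjusted p = 0.219, 0.217 and 0.646). A C followed by at least 4 pyrimidines (C or T, searched on the sense strand, runs may overlap) at exactly the annotated start was found in 68.6% of 35 large-subunit, 73.9% of 23 small-subunit and 64.7% of 17 translation factor genes with a promoter entry. It was found in 33.3% of 12 host transcripts and in 4.04% of all 27305 promoters. Over the whole comparison it was found in 4.89% of the higher and 5.34% of the lower genes, against 5.65% of all tested genes. With the C allowed up to 20 bases to either side, as planned, it was in 83.3% of host transcripts, 94.3% of large-subunit genes and 50.8% of all promoters. By that measure it was in 50.1% of the higher, 46.5% of the lower and 49% of all tested genes. The promoter starts matched the annotated gene starts for 70.9% of entries.

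**Figure D2:**
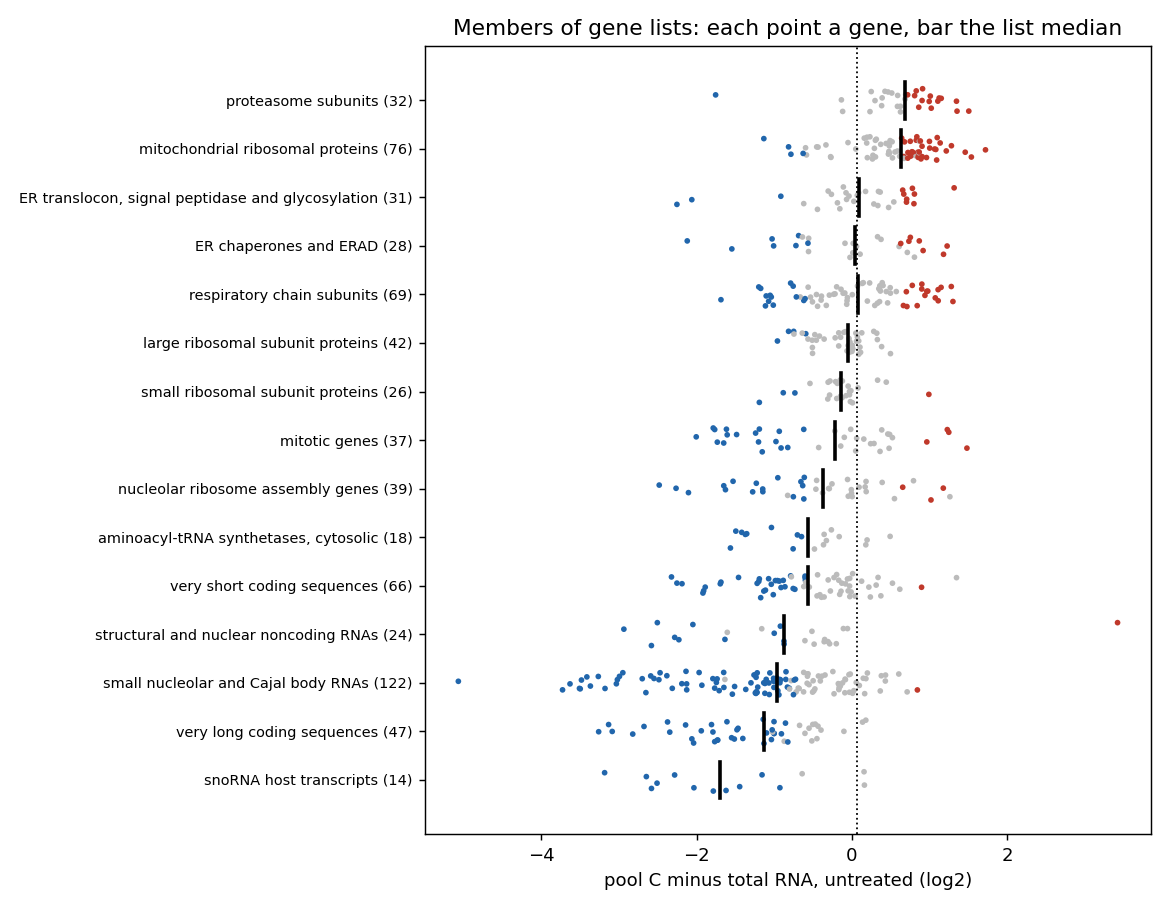
Each point is a member gene of the list named at the left (number tested in brackets), placed by pool C minus total RNA in untreated cells (log2); red is higher and blue lower at an adjusted p under 0.05, black bars are list medians and the dotted line is the median of all genes. Proteasome and mitochondrial ribosomal genes lie mostly to the right, and host transcripts and genes with very long coding sequences mostly to the left.

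Messages with very long coding sequences, a list of giant cytoskeletal, motor, kinase and chromatin proteins, were lower in pool C. Of 47 tested, 33 were lower (70.2%) and 0 higher, beside 15.2% and 14.1% of all genes (list median -1.13). DYNC1H1, the heavy chain of the dynein motor, stood at 6.37 and 6.23 in pool C and 9.31 and 9.47 in total RNA (-3.09 ± 0.22, 8.5-fold lower, adjusted p = 4.34e-06). SPTAN1, a spectrin of the membrane skeleton, was at 5.81 and 5.98 against 9.07 and 8.99 (-3.13 ± 0.27, adjusted p = 1.06e-05). SRRM2, a spliceosome protein, was at 8.68 and 8.01 against 11.60 and 11.61 (-3.26 ± 0.33, adjusted p = 4.02e-05). In each the pool C arrays were both far below the total RNA arrays. The nonmuscle myosin MYH9 differed by -2.82 ± 0.30, the fatty acid synthase FASN by -2.38 ± 0.26 and the chromatin adaptor TRRAP by -1.94 ± 0.22 (adjusted p = 4.35e-05, 6.44e-05 and 7.60e-05). IQGAP1, a scaffold protein outside the list, was undetected in pool C at 5.45 and 5.53 against 8.77 and 9.47, at least 11-fold lower (adjusted p = 4.61e-06). GOLGA8B, also outside the list and a golgin of a family of near-identical copies, differed by -3.24 ± 0.32 (adjusted p = 2.83e-05). The number of list members lower was 25 without the N array of pool C, 28 without its X array, 28 without the N array of total RNA and 22 without its X array, and 18 without both X arrays. The median minus that of all genes was -1.41 with median scaling and -0.73 in the deposited value table.

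Among messages with very short coding sequences, many were lower and few higher. Of 66 tested, 30 were lower (45.5%) and 1 was higher (1.52%), beside 15.2% and 14.1% of all genes (list median -0.57). Median scaling gave 5 higher and 17 lower (median -0.32, -0.60 relative to all genes), and the deposited value table gave 3 higher and 18 lower (median -0.27, -0.40 relative to all genes). LSM3, part of the ring that binds the U6 spliceosomal RNA, stood at 10.69 and 10.41 in pool C and 12.93 and 12.82 in total RNA (-2.32 ± 0.19, 5.01-fold lower, adjusted p = 6.89e-06). OST4, a small subunit of the enzyme that adds sugar chains to nascent proteins, was at 10.90 and 10.62 against 13.02 and 13.01 (-2.25 ± 0.18, adjusted p = 6.64e-06). TOMM5, of the mitochondrial import pore, was at 10.58 and 10.19 against 12.76 and 12.39 (-2.19 ± 0.21, adjusted p = 2.41e-05). The total RNA arrays were above both pool C arrays in all of them. The metallothionein MT1X differed by -1.92 ± 0.37 (adjusted p = 0.00228). The list overlaps others, with 8 ribosomal protein genes, 4 of them lower, and 14 respiratory chain subunits. Among the remaining 44 members 16 were lower and 1 was higher. The count of lower members was 30 without the N array of pool C, 14 without its X array, 13 without the N array of total RNA and 22 without its X array, and 8 without both X arrays.

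Many subunits of the proteasome, the protease that degrades ubiquitin-tagged proteins, were higher in pool C. Of 32 tested, 15 were higher (46.9%) and 1 was lower (3.12%), beside 14.1% and 15.2% of all genes (list median 0.69). The catalytic-core subunit PSMA4 stood at 13.51 and 13.70 in pool C and 11.94 and 12.26 in total RNA (1.504 ± 0.19, 2.84-fold higher, adjusted p = 1.84e-04). PSMB6, which carries a protease site, was at 14.40 and 14.43 against 13.36 and 13.26 (1.11 ± 0.17, adjusted p = 6.01e-04). PSMD1, the large scaffold subunit of the regulatory cap and the exception of the list, was lower at 8.20 and 8.50 against 9.97 and 10.25 (-1.76 ± 0.26, adjusted p = 4.22e-04). In all of these, as in every called gene, the groups did not overlap. PSMA2 differed by 1.35 ± 0.23 and PSMB1, both core subunits, by 1.02 ± 0.17, and PSMD8 of the cap by 1.35 ± 0.24 (adjusted p = 0.00107, 0.00114 and 0.00156). The number higher was 14 without the N array of pool C, 12 without its X array, 12 without the N array of total RNA and 12 without its X array, and 7 without both X arrays. Median scaling gave 26 higher and 1 lower (median 1.01, 0.73 relative to all genes), and the deposited value table gave 24 higher and 1 lower (median 0.84, 0.70 relative to all genes).

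Many nuclear genes for mitochondrial ribosomal proteins, which build the ribosomes inside mitochondria, were also higher. Of 76 tested, 34 were higher (44.7%) and 4 lower (5.26%), beside 14.1% and 15.2% of all genes (list median 0.63). Median scaling gave 55 higher and 0 lower (median 1.03, 0.75 relative to all genes). The deposited value table gave 53 higher and 0 lower (median 0.80, 0.67 relative to all genes). MRPS34, of the small subunit, stood at 10.81 and 10.57 in pool C and 8.92 and 9.02 in total RNA (1.72 ± 0.26, adjusted p = 5.84e-04). MRPL17, of the large subunit, was at 11.59 and 11.84 against 10.40 and 9.96 (1.54 ± 0.24, adjusted p = 6.85e-04), and MRPL37 differed by 1.00 ± 0.19 (adjusted p = 0.00232). Pool C was the higher group on both arrays in each. The count higher was 15 without the N array of pool C, 22 without its X array, 19 without the N array of total RNA and 19 without its X array, and 4 without both X arrays. Respiratory chain subunits went both ways, with 16 of 69 higher (23.2%) and 14 lower (20.3%), beside 14.1% and 15.2% of all genes (list median 0.071). That near balance was lost under median scaling, with 24 higher and 6 lower (median 0.33, 0.051 relative to all genes), and in the deposited value table, with 24 higher and 5 lower (median 0.31, 0.18 relative to all genes). ATP5F1E and ATP5ME, small subunits of ATP synthase, were lower, with differences of -1.69 ± 0.25 and -1.20 ± 0.25 (adjusted p = 4.91e-04 and 0.00332), with ATP5ME at -0.59 (adjusted p = 0.0763) under median scaling. ATP5MC3, a subunit of the same enzyme's rotor ring, was higher by 1.28 ± 0.27 (adjusted p = 0.00378). The number of lower subunits was 15 without the N array of pool C, 4 without its X array, 2 without the N array of total RNA and 8 without its X array, and of higher ones 12 without the N array of pool C, 11 without its X array, 11 without the N array of total RNA and 11 without its X array.

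Genes of the secretory pathway, through which plasma cells pass their antibodies, included both higher and lower members. Of 31 translocon, signal peptidase and glycosylation genes 8 were higher and 3 lower (median 0.086), and of 28 chaperone and degradation genes 7 were higher and 7 lower (median 0.037). As shares these were 25.8% and 9.68%, and 25% and 25%, beside 14.1% and 15.2% of all genes. For the chaperone list the even count was lost under median scaling, with 12 higher and 3 lower (median 0.38, 0.095 relative to all genes), and in the deposited value table, with 10 higher and 3 lower (median 0.23, 0.098 relative to all genes). The translocon list had 9 higher and 2 lower (median 0.54, 0.25 relative to all genes) and 9 higher and 2 lower (median 0.37, 0.24 relative to all genes). MANF, a secreted stress factor that binds the chaperone of the lumen, stood at 13.59 and 13.73 in pool C and 12.56 and 12.39 in total RNA (1.18 ± 0.18, adjusted p = 5.43e-04). SSR4, part of the complex beside the translocon, was at 14.06 and 13.99 against 13.26 and 13.24 (0.78 ± 0.17, adjusted p = 0.00419), and SPCS3 of the signal peptidase differed by 1.32 ± 0.28 (adjusted p = 0.0037). These were higher on both pool C arrays. STT3A, the catalytic subunit of the sugar transferase, was lower at 9.23 and 9.54 against 11.38 and 11.52 (-2.06 ± 0.28, adjusted p = 2.51e-04). The large chaperone HYOU1 was at 7.45 and 7.16 against 9.42 and 9.43 (-2.12 ± 0.21, adjusted p = 3.36e-05), and VCP, the ATPase that pulls misfolded proteins out of the membrane, differed by -1.55 ± 0.24 (adjusted p = 6.81e-04). The number of higher translocon genes was 4 without the N array of pool C, 2 without its X array, 3 without the N array of total RNA and 3 without its X array, and of higher chaperone genes 5 without the N array of pool C, 1 without its X array, 1 without the N array of total RNA and 5 without its X array. The number of lower chaperone genes was 2 without the N array of pool C, 5 without its X array, 3 without the N array of total RNA and 3 without its X array.

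Some of the enzymes that feed translation were lower. Of 18 cytosolic aminoacyl-tRNA synthetases, which charge tRNAs with amino acids, 9 were lower (50%) and 0 higher (median -0.57). The shares of all genes were 15.2% and 14.1%. Median scaling gave 1 higher and 6 lower (median -0.15, -0.43 relative to all genes). The deposited value table gave 1 higher and 7 lower (median -0.23, -0.36 relative to all genes). EPRS1, which charges both glutamate and proline tRNAs, stood at 10.83 and 11.10 in pool C and 12.49 and 12.56 in total RNA (-1.57 ± 0.24, adjusted p = 5.24e-04). The leucine enzyme LARS1 was at 8.84 and 8.74 against 10.26 and 10.31 (-1.496 ± 0.20, adjusted p = 2.18e-04). IARS1 for isoleucine differed by -1.37 ± 0.24 and VARS1 for valine by -1.42 ± 0.29 (adjusted p = 0.0013 and 0.00346), while the glutamine enzyme QARS1 (-0.33 ± 0.21) did not pass (adjusted p = 0.254). The number lower was 5 without the N array of pool C, 7 without its X array, 5 without the N array of total RNA and 5 without its X array.

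Of 39 nucleolar ribosome assembly genes 16 were lower (41%) and 3 higher (7.69%), beside 15.2% and 14.1% of all genes (list median -0.38). Median scaling gave 7 higher and 9 lower (median 0.071, -0.21 relative to all genes). The deposited value table gave 7 higher and 8 lower (median -0.016, -0.15 relative to all genes). The assembly factors HEATR1 and RRP12 were lower, at 7.59 and 8.24 against 9.94 and 10.11 and 7.02 and 7.13 against 9.41 and 9.27 (adjusted p = 4.94e-05 and 7.37e-04). MYBBP1A, a nucleolar MYB-binding protein, was undetected in pool C and at least 4.95-fold lower (adjusted p = 0.00125). FBL, the methyltransferase of the box C/D particles, was higher at 13.86 and 13.87 against 12.72 and 12.67 (1.18 ± 0.18, adjusted p = 6.11e-04). Of 37 mitotic genes 17 were lower and 4 higher (median -0.22), with 10 higher and 11 lower (median 0.036, -0.24 relative to all genes) and 9 higher and 11 lower (median -0.025, -0.16 relative to all genes) under these scalings. The topoisomerase TOP2A stood at 9.31 and 9.41 against 11.34 and 11.39 (-2.01 ± 0.25, adjusted p = 1.70e-04). The giant kinetochore proteins CENPE and CENPF differed by -1.73 ± 0.23 and -1.77 ± 0.22 (adjusted p = 2.51e-04 and 1.70e-04), and the small inhibitor of chromatid separation PTTG1 was higher by 1.23 ± 0.26 (adjusted p = 0.00376). Of 38 DNA replication genes 11 were lower (28.9%) and 4 higher (10.5%). That balance turned to 13 higher and 7 lower (median 0.26, -0.020 relative to all genes) with median scaling. In the deposited value table it was 9 higher and 7 lower (median 0.12, -0.0078 relative to all genes). LIG1, the ligase of Okazaki fragments, differed by -2.23 ± 0.30, the helicase subunit MCM2 by -2.18 ± 0.28 and the polymerase POLE by -1.90 ± 0.27 (adjusted p = 2.38e-04, 1.84e-04 and 3.90e-04). GINS4, a small helicase subunit undetected in total RNA, was at least 3.6-fold higher (adjusted p = 7.24e-04). The number of lower nucleolar genes was 9 without the N array of pool C, 12 without its X array, 9 without the N array of total RNA and 10 without its X array. That of mitotic genes was 10 without the N array of pool C, 14 without its X array, 14 without the N array of total RNA and 11 without its X array, and that of replication genes 5 without the N array of pool C, 13 without its X array, 6 without the N array of total RNA and 7 without its X array.

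Among messages known for translational control, some were lower and some higher in pool C. Of 20 mRNAs with regulatory upstream reading frames 4 were lower and 2 higher. These shares (20% and 10%) stand beside 15.2% and 14.1% of all genes. The list median was -0.011 (-0.076 relative to all genes). It was 0.20 (-0.082 relative to all genes) with median scaling and 0.10 (-0.0275 relative to all genes) in the deposited value table. ATF4, the transcription factor of the integrated stress response, whose upstream frames hold back its translation in unstressed cells, stood at 12.07 and 11.33 in pool C and 13.59 and 13.33 in total RNA (-1.76 ± 0.29, 3.39-fold lower, adjusted p = 8.93e-04). Its 3 kept probes gave -1.98 to -0.38. DDIT3, a stress-induced factor downstream of it, was undetected in pool C at 5.75 and 5.15 against 7.16 and 7.15, at least 2.82-fold lower (adjusted p = 3.64e-04). SLC35A4, whose upstream frame is itself translated, was at 8.71 and 7.94 against 9.99 and 9.73 (-1.54 ± 0.32, adjusted p = 0.0037). The groups did not overlap in any of them, as in every called gene. ODC1, the polyamine enzyme, did not pass (-0.19 ± 0.18, adjusted p = 0.45). Of 6 mRNAs with iron-responsive elements 2 were lower (33.3%) and 0 higher, beside 15.2% and 14.1% of all genes. The ferritin light chain FTL, whose element lies before the coding sequence and blocks translation when iron is scarce, was at 12.23 and 12.13 against 13.60 and 13.37 (-1.31 ± 0.20, adjusted p = 5.24e-04). The transferrin receptor TFRC, whose elements lie behind it and control stability, differed by -1.29 ± 0.23 (adjusted p = 0.00156).

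Of 22 plasma cell genes 3 were higher and 3 lower (median 0.14), shares of 13.6% each way beside 14.1% and 15.2% of all genes. Median scaling gave 6 higher and 1 lower (median 0.25, -0.028 relative to all genes), and the deposited value table gave 5 higher and 1 lower (median 0.17, 0.041 relative to all genes). The surface enzyme CD38 was at 8.70 and 8.39 against 7.60 and 7.34 (1.08 ± 0.26, adjusted p = 0.00763), the secretory chaperone MZB1 at 13.51 and 13.76 against 12.86 and 12.95 (0.73 ± 0.19, adjusted p = 0.0106) and the survival receptor TNFRSF17 at 13.60 and 13.83 against 12.98 and 13.13 (0.66 ± 0.20, adjusted p = 0.0245). IRF4, a transcription factor that myeloma cells depend on, was lower at 10.30 and 9.79 against 11.39 and 11.17 (-1.24 ± 0.27, adjusted p = 0.0046). These calls depended on single arrays. CD38 was at 0.93 (adjusted p = 0.0659) without the N array of pool C and 0.95 (adjusted p = 0.0671) without the X array of total RNA. MZB1 was at 0.61 (adjusted p = 0.0793) and TNFRSF17 at 0.54 (adjusted p = 0.144) without the X array of pool C, and at 0.69 (adjusted p = 0.0722) and 0.58 (adjusted p = 0.139) without the N array of total RNA. TNFRSF17 was at 0.73 (adjusted p = 0.0721) without the X array of total RNA. IRF4 was at -0.98 (adjusted p = 0.0502) without the X array of pool C and -0.67 (adjusted p = 0.0853) under median scaling. The joining chain of antibodies JCHAIN (0.27 ± 0.19), the secretory regulator XBP1 (0.015 ± 0.20) and the growth regulator MYC (0.090 ± 0.20) did not pass (adjusted p = 0.308, 0.962 and 0.771), and the probes of MYC disagreed in sign. Glucocorticoid receptor targets held 1 lower and 0 higher of 20 (5% and 0%), beside 15.2% and 14.1% of all genes. TSC22D3, a leucine zipper protein induced by glucocorticoids, was at 10.42 and 12.80 in pool C and 10.00 and 12.38 in total RNA. DDIT4, an inhibitor of mTORC1, was at 10.19 and 13.10 against 9.84 and 13.03. Both stood higher on the X arrays of both groups although these cells were untreated. The median level of the 20 targets did too, at 8.18 and 9.23 in pool C and 8.09 and 8.98 in total RNA. The medians of all genes were 7.84 and 7.84 in pool C and 7.89 and 7.87 in total RNA.

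Several of the genes furthest above total RNA were outside these families. RSPRY1, a protein with RING finger and SPRY domains, stood at 10.06 and 9.93 in pool C and 6.31 and 6.43 in total RNA (3.63 ± 0.64, 12.3-fold higher, adjusted p = 0.00139). ZC2HC1A, a zinc finger protein undetected in total RNA, was at 7.72 and 7.98 against 5.58 and 5.28, at least 4.42-fold higher (adjusted p = 0.00293). CAMKK2, a calcium-dependent kinase that activates AMPK, was at 6.97 and 7.36 against 5.03 and 4.70, also undetected in total RNA and at least 2.75-fold higher (adjusted p = 0.00164). Within each group the arrays of these genes lay close. The tetraspanin TSPAN5 was at 7.65 and 8.24 against 5.74 and 5.69 (2.24 ± 0.49, adjusted p = 0.00505), and ZBTB38, a zinc finger protein that binds methylated DNA, differed by 2.11 ± 0.43 (adjusted p = 0.00319). RBPJ, the DNA-binding factor of the Notch pathway, was at 6.75 and 7.97 against 4.72 and 4.76, at least 3.14-fold higher (adjusted p = 0.00528). The 2 kept probes of RBPJ gave 0.87 to 2.62. Its X array of pool C stood well above the N array, and without the X array RBPJ was at 2.01 (adjusted p = 0.0614).

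**Figure D3:**
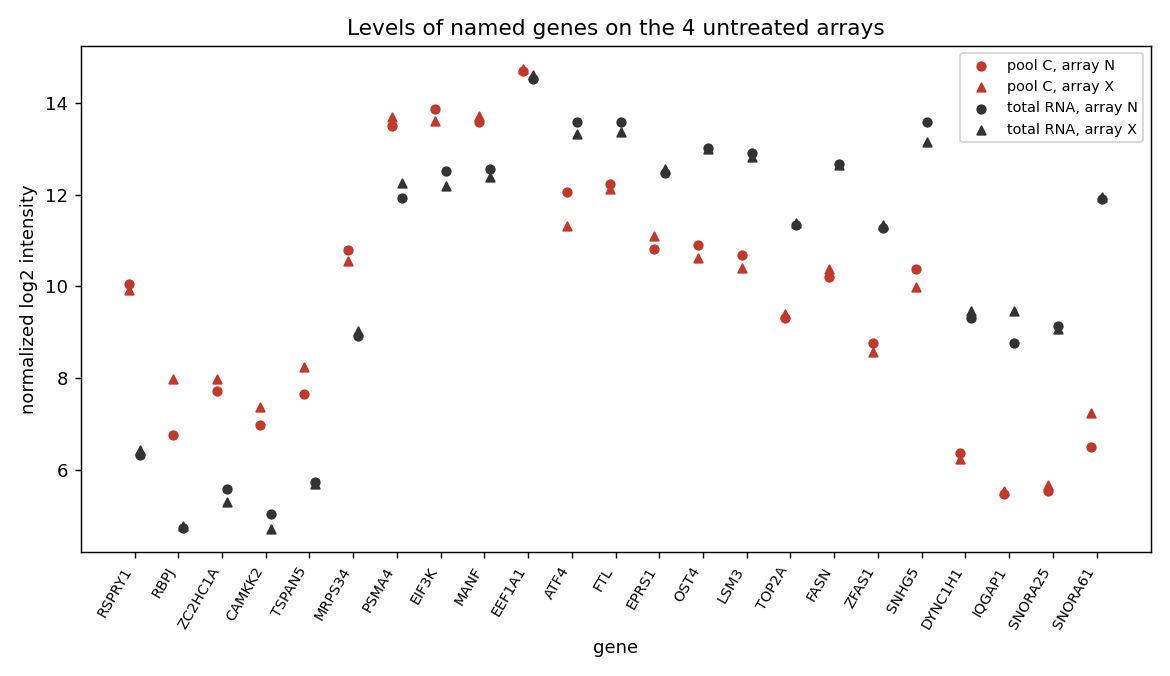
Normalized log2 intensity of named genes on the 4 untreated arrays, red for pool C and dark grey for total RNA, circles for N and triangles for X arrays. From RSPRY1 to MANF both red points lie above both grey ones, and from ATF4 to SNORA61 both lie below. EEF1A1, which did not pass, stands between them.

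Of the other lists, BCL2 family genes held 0 higher and 0 lower of 15, and polyadenylated replacement histones 0 and 0 of 8. Replication-dependent histones held 1 and 0 of 19, where all genes had shares of 14.1% and 15.2%. Median scaling gave these lists 2 and 0, 2 and 0, and 5 and 0. The lists below held calls in both directions. Of 28 heat shock genes 8 were lower (28.6%) and 2 higher (7.14%), beside 15.2% and 14.1% of all genes (list median -0.25). The number lower was 4 without the N array of pool C, 6 without its X array, 3 without the N array of total RNA and 6 without its X array, and the list turned to 4 higher and 2 lower (median 0.085, -0.20 relative to all genes) under median scaling and 4 higher and 4 lower (median 0.042, -0.090 relative to all genes) in the deposited value table. The abundant cytosolic chaperone HSP90AB1 stood at 11.87 and 11.82 against 13.46 and 13.11 (-1.44 ± 0.23, adjusted p = 7.29e-04). Of 28 RNA decay genes 6 were lower (21.4%) and 4 higher (14.3%), beside 15.2% and 14.1% of all genes, with 8 higher and 5 lower (median 0.035, -0.25 relative to all genes) and 4 higher and 5 lower (median -0.036, -0.17 relative to all genes) under these scalings. UPF1, the helicase of nonsense-mediated decay, differed by -1.42 ± 0.22 and the decapping scaffold EDC4 by -1.85 ± 0.28 (adjusted p = 6.33e-04 and 5.24e-04). Of 258 zinc finger genes named ZNF 33 were lower (12.8%) and 13 higher (5.04%), both below the shares of all genes. Their median was -0.079 (-0.14 relative to all genes). It was 0.067 (-0.21 relative to all genes) with median scaling and 0.022 (-0.11 relative to all genes) in the deposited value table. ZNF486 was at 10.38 and 10.55 against 12.22 and 12.40 (-1.84 ± 0.24, adjusted p = 1.94e-04). Amino acid response targets of ATF4 held 3 higher and 2 lower of 18 (16.7% and 11.1%), and sterol synthesis and uptake genes 2 and 4 of 18 (11.1% and 22.2%). Selenoproteins held 1 and 3 of 17 (5.88% and 17.6%), and immediate early genes 1 and 1 of 25 (4% and 4%). Among all genes the shares were 14.1% and 15.2%. Median scaling gave 5 and 0 for selenoproteins and 7 and 2 for sterol genes.

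The same comparison after 4 h of dexamethasone used 4 other arrays. Both comparisons came from the same fit and shared its error for each gene, so their calls are not independent. There 3034 genes (29.9%) passed, 1428 higher (14.1%) and 1606 lower (15.8%), and 2223 passed in the same direction at both times, which is 74.7% of the calls at 0 h and 73.3% of those at 4 h, with 0 in opposite directions. Of the 2974 genes called at 0 h, 2959 had a difference of the same sign at 4 h. List medians at 4 h were 0.67 for the proteasome, 0.59 for mitochondrial ribosomal proteins, -1.64 for host transcripts, -1.33 for very long and -0.50 for very short coding sequences. SNORA61 was at -4.66, ATF4 at -1.60, OST4 at -2.001 and PSMA4 at 1.32, while RSPRY1 was at 1.88 against 3.63 at 0 h. The difference between the times passed for 0 genes in limma, with 184 (1.81%) at an unadjusted p under 0.05. RPL26, among the 5 with the smallest p on the low side, was at -0.42 at 0 h and -1.34 at 4 h (difference -0.92, adjusted p = 1).

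**Figure D4:**
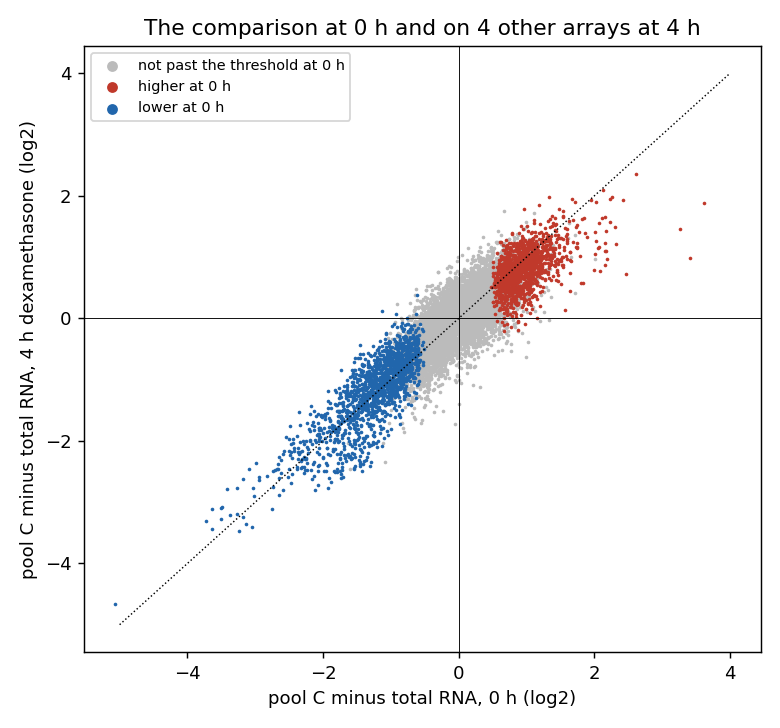
Pool C minus total RNA (log2) for each gene at 0 h on the horizontal and at 4 h of dexamethasone on the vertical axis, coloured by the call at 0 h; the dotted line marks equal values. Of the 2974 coloured points 2959 have the same sign at both times.

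The other untreated pools place pool C in the set. These comparisons share the pool C or the total RNA arrays with the one above, so their values are given side by side. Pool C differed from pool B at 4526 genes (44.5%), 2603 higher (25.6%) and 1923 lower (18.9%), and from pool A at 5645 (55.5%), 3472 higher (34.2%) and 2173 lower (21.4%). Proteasome genes had medians against total RNA of -0.94 in pool A, -1.04 in pool B and 0.69 in pool C, and 30 of 32 were higher in pool C than in pool B. Very short coding sequences ran the other way, at 0.39, 0.84 and -0.57, with 53 of 66 lower in pool C than in pool B. Host transcripts were at 0.95, 0.69 and -1.70, with 12 of 14 lower in pool C than in pool B. The medians of these 3 lists were on the opposite side of total RNA in pools A and B, also with median scaling and in the deposited value table.

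Very long coding sequences were low in every pool, at -1.54, -1.10 and -1.13, and 9 were lower and 4 higher in pool C than in pool B. Small nucleolar RNAs stood at 1.48 in pool A and -0.73 in pool B, and 105 of 122 were lower in pool C than in pool A. Their probes could enter the test by detection in pool A alone, so this count depends partly on the filter. Aminoacyl-tRNA synthetases were at -0.87, -1.27 and -0.57. Among single genes, ATF4 was at 0.36 in pool A and -0.054 in pool B against total RNA and -1.71 in pool C against pool B (adjusted p = 3.91e-04). PSMA4 was at -0.94 and -0.78, and 2.28 in pool C against pool B (adjusted p = 3.57e-06). RSPRY1 was already high in the other pools, at 2.52 and 3.35, and pool C differed from pool B by 0.28 (adjusted p = 0.757). The medians of these 3 lists against total RNA kept their signs in pools A and B under both other scalings. For very long coding sequences the split between pools C and B did not: with median scaling 11 were higher and 1 lower, and the deposited value table gave 6 higher and 0 lower. Median scaling put the median of all genes at 0.64 for pool C minus pool B and 1.16 for pool C minus pool A, in place of 0.13 and 0.26.

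**Figure D5:**
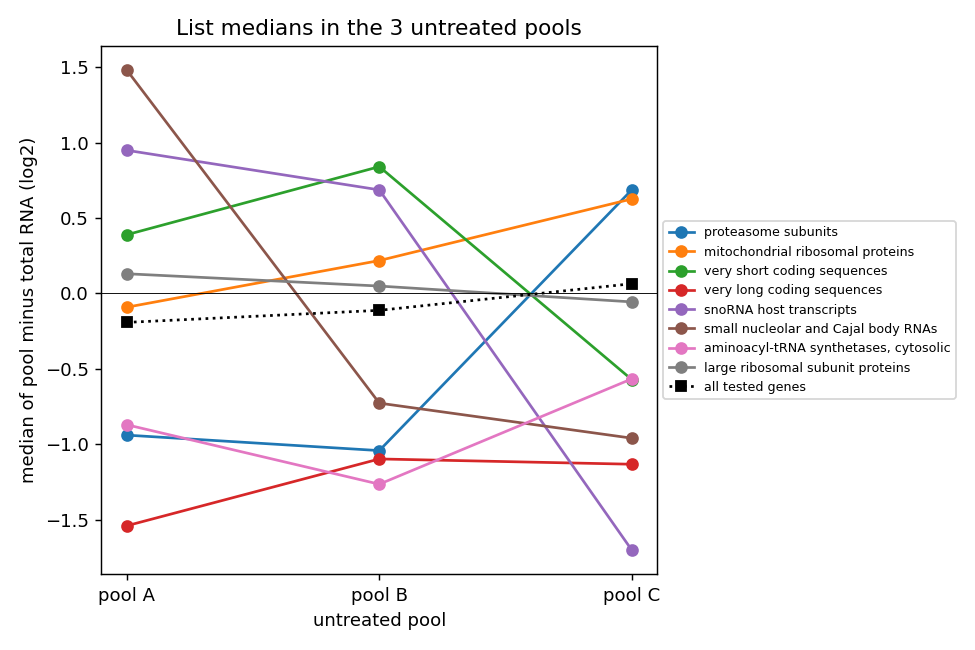
Median difference of each list from total RNA (log2, vertical axis) in untreated pools A, B and C (horizontal axis), with all tested genes as a dotted line. Proteasome genes are below 0 in pools A and B and at 0.69 in pool C, while host transcripts and very short coding sequences are above 0 in pools A and B and below 0 in pool C.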

How the data were processed

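The deposited non-normalized table holds linear intensities with a detection p-value beside each, by probe and array, per the file headers. The deposited value table of the same samples holds log2 values; its normalization and centring were not stated in the sources used here, its 4 total RNA columns share 1 range and the pool columns do not. Per the labels' protocols, pool RNA was recovered from sucrose and labelled with biotin. Intensities were background-corrected (normexp on the detection p-values, offset 16), put on a log2 scale and quantile-normalized over 16 arrays in R 4.3.3 with limma 3.58.1. A gene was read from its brightest probe on average and named from the platform annotation and RefSeq. Means of 8 groups were fitted (limma, 8 residual and 5.36 prior degrees of freedom). A probe undetected on both arrays of a group gives a fold as a bound ("at least"). It is the bright group's mean over the higher, on each array of the dim group, of the lowest detected signal and the probe's own. The method was tested on simulated data. The comparison, the lists and the rule for named genes were chosen with earlier results of these data known. By that rule the 20 highest and 20 lowest called genes whose arrays did not overlap could be named, a condition that all called genes met. So could the 4 brightest and 4 most different members of each list. The 5 smallest p each way for the difference between times and some fixed genes could be named too. The text names a part, mostly genes whose calls held without any 1 array. A planned comparison with protein length was not run, since no protein table was used here.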

Additional observations from a re-analysis of the deposited data

Results flagged for a closer look

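Of 3980 detected probes with no single gene symbol, which no comparison above uses, 328 were higher and 609 lower in untreated pool C than in untreated total RNA (23.5% called, limma). TPT1, the translationally controlled tumour protein, was above total RNA on both pool C arrays at 0 h and below it on both at 4 h. Its difference between the times was -0.22 log2 units (adjusted p = 1), which did not pass, and its probes disagreed in sign.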

How the results depend on the processing

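Without any 1 array of the comparison the calls between pool C and total RNA numbered 1523 to 1898 at 0 h and, at 4 h, 1274 to 2160, and without both untreated X arrays, added after seeing the data, 650 at 0 h. Of 86 named genes called, 78 were called without each of the 4 arrays in turn and 60 without both X arrays; most were picked for text because their calls held without any 1 array. The calls at 0 h numbered 2307 with the 8 untreated arrays and 3607 with the 4 of the comparison, 2740 of 20039 genes with no filter and 3256 with no background correction, and 0 of the named genes called changed sign under the alternatives run, while some not called did (MYC -0.18 to 0.43, XBP1 -0.16 to 0.19). Arrays of equal column letter deviated together in 27 of 28 pairs of groups (r over 0.1; 0.364 for pool C and total RNA, lowest -0.0762), and the labels do not say what a number shares. With the replicate block by letter, 3816 genes passed at 0 h, 3784 at 4 h and 0 for the difference between times (309 at an unadjusted p under 0.05, limma), HBB passed as lower (adjusted p = 0.00711), and the deposited value table with the block by replicate number gave 4053 at 0 h. The comparison with protein length was not run. The 2 arrays per group limit the precision, and dim probes can understate differences. Whether probes near the top of the intensity range do so was not tested.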
